A study of Populus tremula x Populus alba with 3 samples.

Results

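Sieve elements, the conducting cells of phloem, can be plugged by filaments of sieve element occlusion proteins, and plasmodesmata, the channels between plant cells, can be narrowed by callose, a beta-1,3-glucan laid down around their necks. Plasmodesmata callose-binding proteins (PDCBs) hold callose at those necks. In poplar buds, short days are known to close plasmodesmata with callose, and chilling is known to be followed by its removal by beta-1,3-glucanases before growth resumes. The genes described here are 5 poplar gene models of the 41335 in the count table. Arabidopsis matches exist for 2010 genes, all in the authors' deposited table. Of the 5 genes, 4 are all the genes of the authors' deposited table matched to AT3G01680, which encodes a sieve element occlusion protein in Arabidopsis, and 1 is Potri.010G158900, chosen by its identifier from 4 genes matched to PDCB3. The authors' deposited table gives the occlusion matches neither a symbol nor a description, so their role rests on the Arabidopsis locus alone.

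RNA came from apical buds of the hybrid poplar Populus tremula x Populus alba, clone INRA 717-1B4, a line widely used for transformation. The wild type group has 1 library, and the RNA interference group has 2, from lines KD2 and KD5, in which the transgene targets PtaDML10, a gene named after DNA demethylases of the DEMETER type. Each genotype was sampled as 15 buds from 15 plants, and the labels do not say whether they were pooled, nor which promoter drives the transgene. All groups had 4 weeks of 16 h days at 21 °C, 12 weeks of 8 h days at 19 °C and 4 weeks at 4 °C, and were then returned to long days. Buds that showed signs of opening had been removed.

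The libraries held between 4509887 and 6829583 counts, with wild type the deepest, and between 28656 and 28868 genes were detected in each. The PtaDML10 locus, Potri.010G234400 by published naming, had 59 counts in the library labelled wild type, 63 in that labelled KD2 and 83 in that labelled KD5, at 9.59, 13.23 and 17.01 CPM. It was higher where a knockdown would be lower, although its log2 fold change of 0.66 ± 0.31 (SE) was not called (adjusted p of the edgeR test 0.151). Reads from the transgene cannot be told apart from native reads in such counts. Each direction below is that of the libraries labelled KD2 and KD5. Levels below are CPM, counts scaled to a common library size after TMM normalization, in which 3 counts, the detection floor used here, equal 0.488 CPM in wild type, 0.63 in line KD2 and 0.615 in line KD5. Fold changes are those of both RNAi libraries against the single wild type library in an edgeR quasi-likelihood fit over 23089 genes. The wild type library has no replicate, and the spread comes from KD2 against KD5. The fit pooled that spread over genes, so an SE does not reflect a gene's own difference between KD2 and KD5.

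All 5 genes entered the comparison because the authors had listed them as differing between the same libraries, so their lower level in KD2 and KD5 is a description and carries no test. The authors' deposited table stops at an adjusted p of 0.0499. The member nearest that limit was Potri.012G090400 at 0.0437 in the authors' deposited table, and genes outside the table carry no Arabidopsis match here, so none just past the limit can be named. All 5 passed the filter on low counts. In the fit over all genes 4 of the 5 were called lower at an adjusted p below 0.05, where 8.05% of all genes tested were called lower and 5.0% higher. Of the 2128 genes of the authors' deposited table that were tested, 59.5% were called lower and 30.8% higher. Their median stood at -0.76 on the log2 scale. That count was fixed in part by how the genes were chosen.

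Among the occlusion matches, Potri.017G071000 was counted 140 times in wild type, 42 times in line KD2 and 53 times in line KD5, at 22.8, 8.82 and 10.9 CPM. Wild type lay above both RNAi libraries, and the 95% Poisson interval of wild type (19.15 to 26.86 CPM) did not meet that of KD5 (8.14 to 14.2 CPM) or KD2 (6.36 to 11.9 CPM). Its fitted log2 fold change was -1.21 (SE 0.28), and counting error alone placed wild type between 1.77 and 3.03 times the RNAi level. These intervals cover counting error only.

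Potri.001G340400, the occlusion match with the most counts, was counted 162 times in wild type, 53 times in line KD2 and 76 times in line KD5, at 26.3, 11.1 and 15.6 CPM. Wild type was again highest and KD2 lowest. The fitted log2 fold change was -0.98 (SE 0.25), made up of a log2 ratio to wild type of -1.22 in KD2 and -0.74 in KD5. Between the RNAi libraries the ratio of KD2 to KD5 was 0.714, with an exact counting interval from 0.493 to 1.03, so a difference between the lines was not detectable at this depth.

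Potri.012G090400 was counted 108 times in wild type, 48 times in line KD2 and 45 times in line KD5, at 17.6, 10.1 and 9.22 CPM. Here KD2 and KD5 were nearly level, with a ratio of 1.09 and a counting interval from 0.712 to 1.68. Its log2 fold change of -0.86 (SE 0.30) was the closest to 0 among the occlusion matches.

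Potri.001G340600 was sparsely counted, with 24 counts in the wild type library, 3 in that of KD2 and 7 in that of KD5. Its levels were 3.90, 0.63 and 1.43 CPM, and KD2 sat at the detection floor. The Poisson interval of KD5 (0.577 to 2.96 CPM) overlapped that of wild type (2.5 to 5.81 CPM), and that of KD2 (0.13 to 1.84 CPM) did not. The log2 fold change of -1.89 had an SE of 0.85, and this was the member that was not called in the fit over all genes, although the authors' deposited table gives it an adjusted p of 0.0239. Counting error alone placed KD2 at 0.161 times wild type, with an interval from 0.0311 to 0.532, and KD5 at 0.368 times, with an interval from 0.134 to 0.88.

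PDCB3 encodes a callose-binding protein anchored at plasmodesmata in Arabidopsis. Its member match, Potri.010G158900, was counted 1297 times in wild type, 523 times in line KD2 and 578 times in line KD5, at 211, 110 and 118 CPM. The RNAi libraries lay close together and below wild type, at a mean of 114 ± 6.12 CPM (SD, n = 2). The fitted log2 fold change was -0.89 (SE 0.16), and wild type stood between 1.703 and 2.003 times the RNAi level by counting error alone. The ratio of KD2 to KD5 was 0.927, with an interval from 0.822 to 1.05.

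The authors' deposited table holds 3 further PDCB3 matches, which were set beside the member because the same Arabidopsis gene names them. Potri.015G057800 had 530 CPM in wild type, 293 in line KD2 and 317 in line KD5, a log2 fold change of -0.80 (SE 0.15). Potri.008G095300 had 67.6, 33.0 and 36.9 CPM, a log2 fold change of -0.95 (SE 0.19). Potri.012G065700 had 119 CPM in wild type, 81.9 in line KD2 and 65.0 in line KD5, a log2 fold change of -0.69 (SE 0.17). In each of the 3 both RNAi libraries lay below wild type, and in Potri.012G065700 alone of the PDCB3 matches KD5 lay below KD2.

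**Figure D1:**
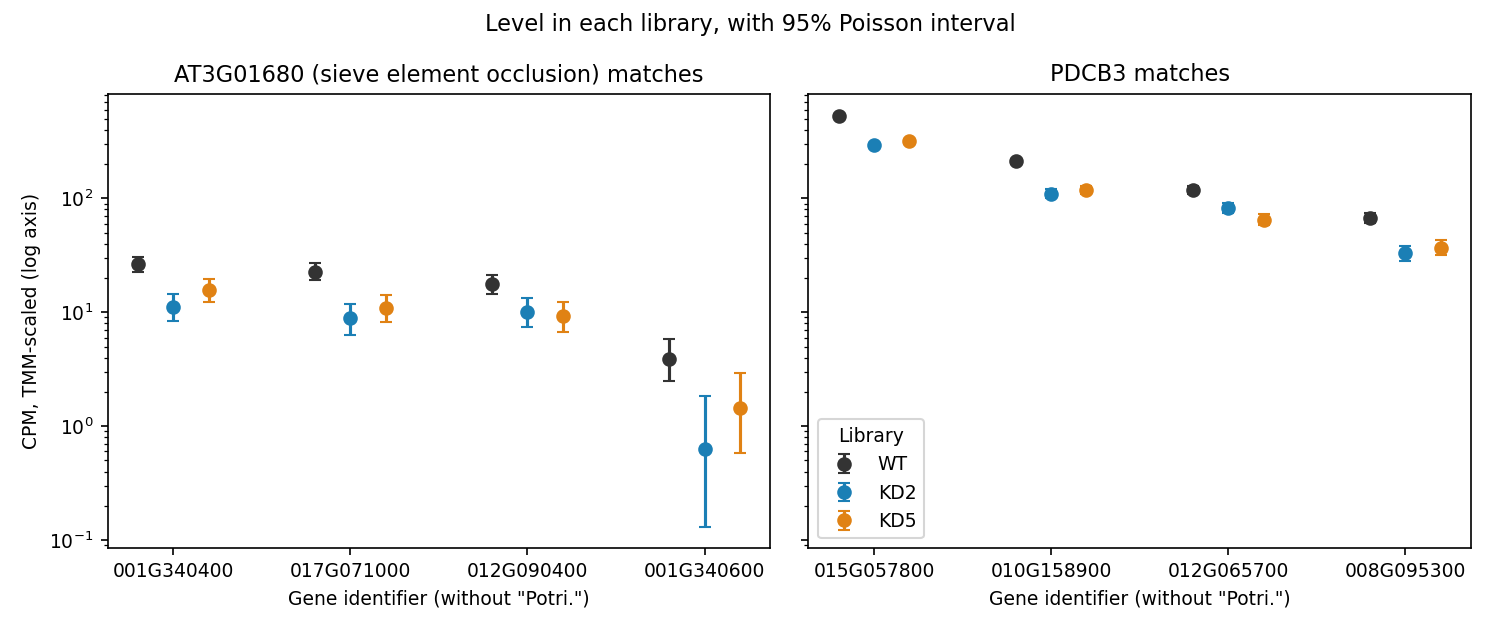
CPM (log axis) of the 4 AT3G01680 matches and the 4 PDCB3 matches in wild type, KD2 and KD5, 1 point per library with its 95% Poisson interval. For every gene both RNAi points lie below the wild type point, and Potri.001G340600 has the widest intervals, on 24, 3 and 7 counts.

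Summed over the 4 occlusion matches, the wild type library held 434 counts, that of KD2 146 and that of KD5 181, at 70.6, 30.7 and 37.1 CPM. The RNAi libraries together stood at 0.481 times wild type, with a counting interval from 0.415 to 0.556. Without the sparse Potri.001G340600 the ratio was 0.493. That gene held only 5.53% of the occlusion-matched counts in wild type, so leaving it out could move the ratio little. Summed over the 4 PDCB3 matches, the counts were 5699, 2464 and 2622, or 927, 517 and 537 CPM, and the RNAi libraries stood at 0.569 times wild type, with an interval from 0.548 to 0.591. Both sums hold only matches that the authors had listed as differing between these libraries, so their low ratios were fixed in part in advance. Matches outside that list are not in the sums. In bulk buds, fewer cells of a type and less RNA per cell cannot be told apart.

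A comparison that needs no scaling between libraries is how the counts of a library are split. The occlusion matches took 7.08% of the counts of both sets in wild type (Wilson 95% interval 6.46 to 7.75), 5.59% in line KD2 (4.78 to 6.54) and 6.46% in line KD5 (5.61 to 7.43). The share was lowest in KD2, whose interval overlapped that of wild type narrowly, and that of KD5 overlapped wild type widely. These are single libraries, and the difference between them was not tested. Among the PDCB3 matches, the member Potri.010G158900 held 22.8% of counts in wild type, 21.2% in line KD2 and 22.0% in line KD5. Potri.015G057800 held 57.2%, 56.6% and 59.0%.

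The share of Potri.012G065700 was 12.8% of PDCB3-matched counts in wild type (11.9 to 13.7), 15.8% in line KD2 (14.4 to 17.3) and 12.1% in line KD5 (10.9 to 13.4). Its level in KD2 was 1.26 times that in KD5, with a counting interval from 1.08 to 1.47. On the log2 scale this ratio was 0.33, where the SD of that ratio over 2256 tested genes of like abundance was 0.21, so the ratio was under 2 such SDs. Among the occlusion matches, Potri.012G090400 held 24.9% of counts in wild type, 32.9% in line KD2 and 24.9% in line KD5, with overlapping intervals. Shares are of counts and not of transcripts, since gene lengths were not used, and reads shared between near-identical copies may have been split or dropped in counting.

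**Figure D2:**
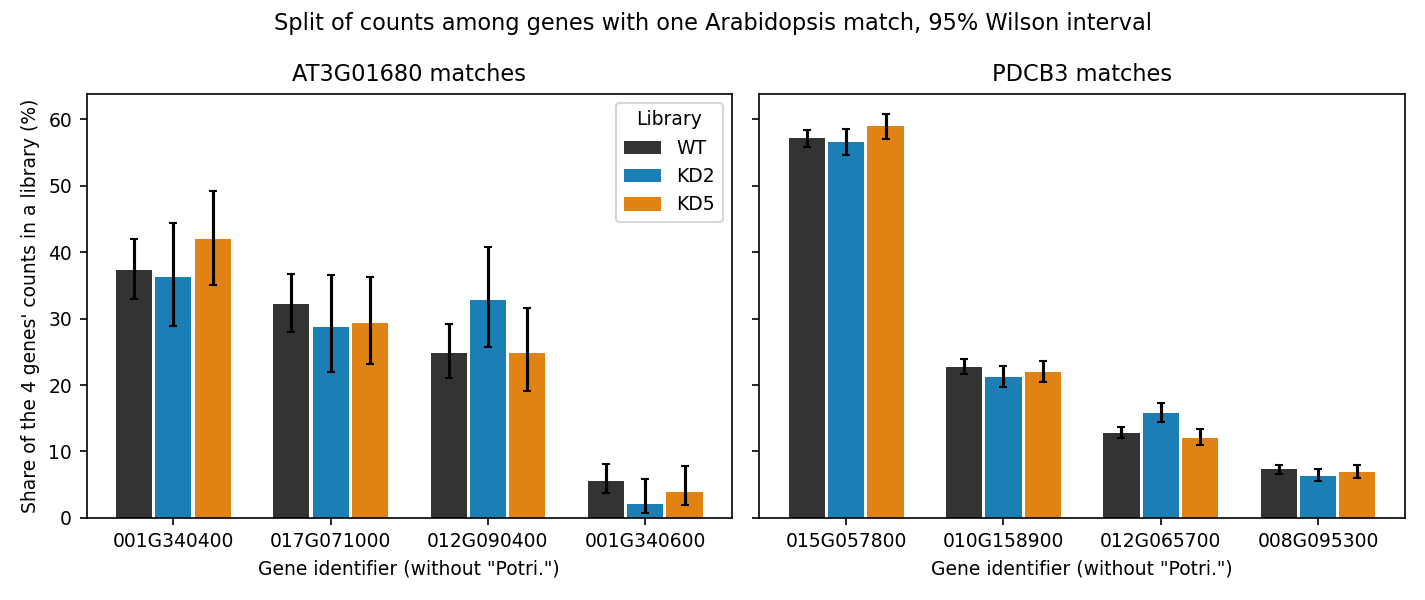
Share of counts (%) that each gene takes among the 4 AT3G01680 matches or the 4 PDCB3 matches, in wild type, KD2 and KD5, with 95% Wilson intervals. The order of the PDCB3 matches is alike in the 3 libraries, and Potri.012G065700 is higher in KD2 (15.8%) than in wild type (12.8%) or KD5 (12.1%).

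The share of genes called lower differed with abundance, so each gene is set beside tested genes of like abundance. Among tested genes within 0.5 log2 CPM of Potri.017G071000, 4.53% were called lower and the median log2 fold change was 0.10. The corresponding share was 4.88% around Potri.001G340400, with a median of 0.08, and 4.2% around Potri.012G090400, with a median of 0.10. Around Potri.001G340600 only 0.533% were called lower, with a median of 0.20.

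For the PDCB3 matches the surroundings were different. Around the member Potri.010G158900, 27.8% of genes were called lower and the median log2 fold change was -0.22. Around Potri.015G057800, 47.3% were called lower and the median was -0.41, against its own -0.80. The share was 9.7% around Potri.008G095300 and 16.3% around Potri.012G065700. The occlusion matches lay among genes of which few were called lower, and Potri.015G057800 among genes of which many were. The occlusion and PDCB3 matches were listed by the authors as differing, and the genes around them were taken by abundance alone. A gap between a match and its surroundings was therefore fixed in part in advance. The share called also depends on how many counts the genes have. The 10th percentile of log2 fold change was -1.02 around both Potri.001G340600 and Potri.015G057800, although the shares called were 0.533% and 47.3%.

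**Figure D3:**
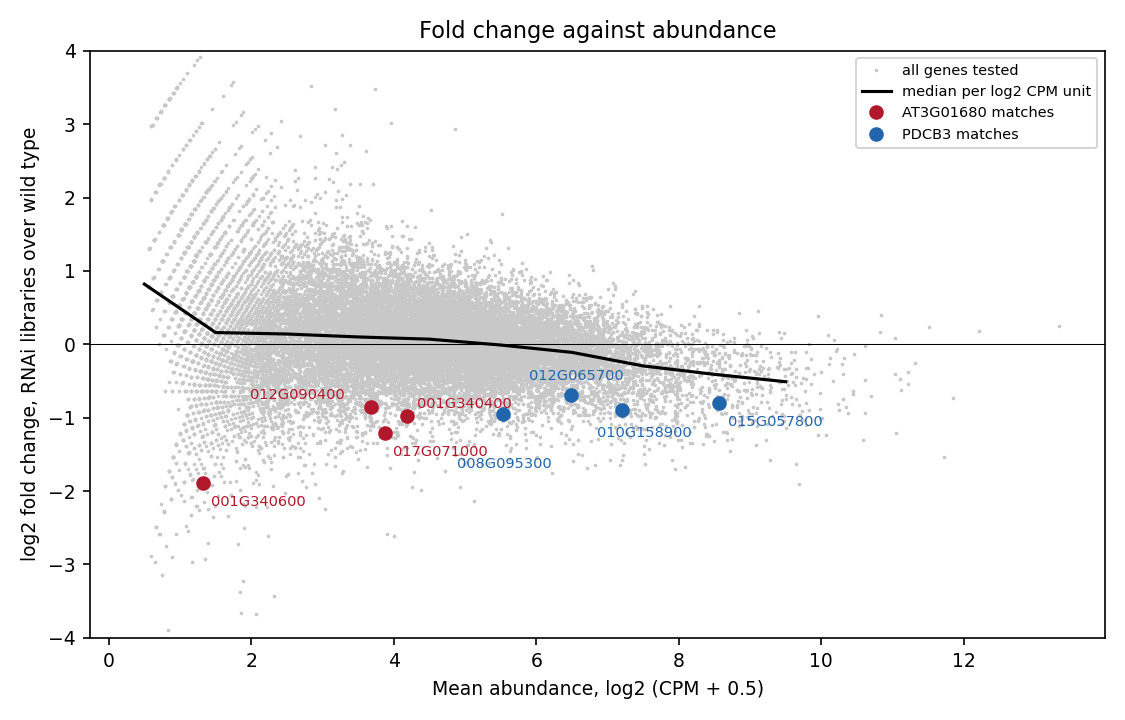
Fitted log2 fold change of the RNAi libraries over wild type against mean abundance, log2(CPM + 0.5), for all 23089 tested genes (grey), with the median in each unit of abundance that holds at least 100 genes (black line). The AT3G01680 matches (red) lie where the line is just above 0 and the PDCB3 matches (blue) extend to where it runs below 0. A further 48 genes beyond 4 in either direction are not drawn.

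Other scalings moved the values and kept their sign, which the choice of genes on these same libraries made likely in advance. With libraries scaled by size only, the median of all tested genes shifted from 0.02 to 0.24. The members then stood at log2 fold changes of -0.99 (Potri.017G071000), -0.76 (Potri.001G340400), -0.64 (Potri.012G090400), -1.67 (Potri.001G340600) and -0.67 (Potri.010G158900). Relative to that median Potri.017G071000 was at -1.23 and Potri.010G158900 at -0.91. A loess normalization on abundance, added after the data were seen, placed the occlusion matches at -0.96 (Potri.012G090400), -1.06 (Potri.001G340400), -1.30 (Potri.017G071000) and -2.21 (Potri.001G340600). It placed the PDCB3 matches at -0.37 (Potri.015G057800), -0.55 (Potri.012G065700), -0.64 (Potri.010G158900) and -0.93 (Potri.008G095300), the last hardly moved.

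**Figure D4:**
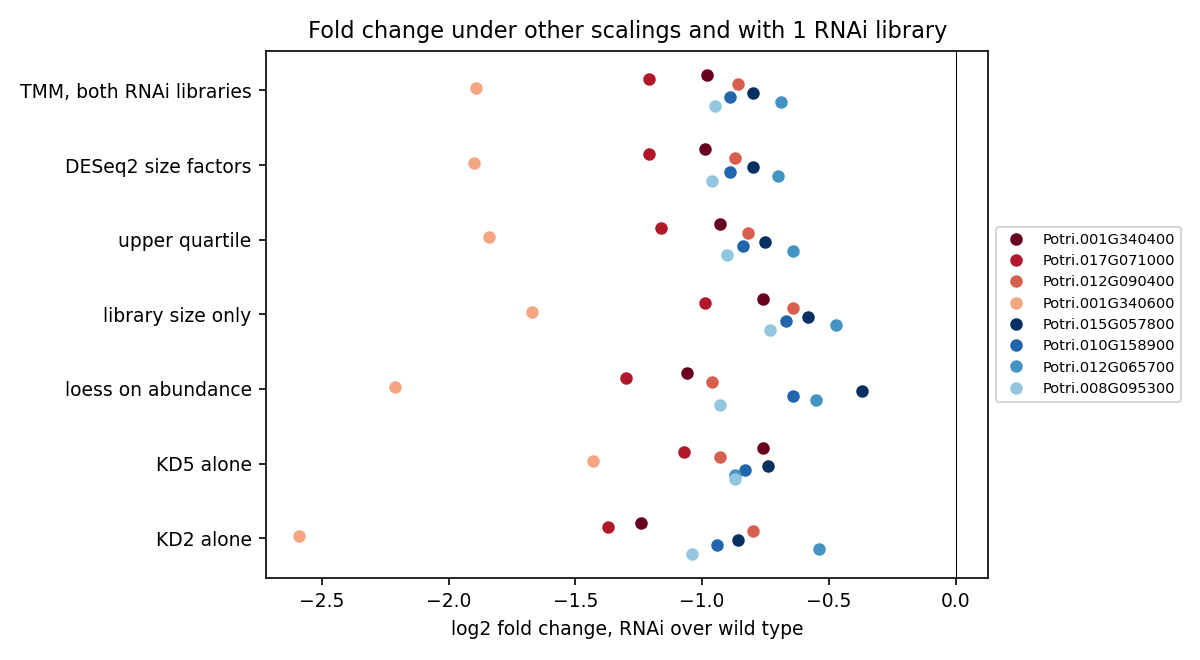
Log2 fold change of the RNAi libraries over wild type for the 8 genes under 5 scalings with both RNAi libraries, and under TMM with KD5 or KD2 alone against wild type. Every point lies below 0, from -2.59 for Potri.001G340600 in KD2 alone to -0.37 for Potri.015G057800 after loess normalization. The 8 genes were listed by the authors on these same libraries.

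The genes with neighbouring identifiers were not part of the rule, and poplar identifiers run in order along each chromosome. The reach of 5 identifiers on either side was chosen after the data were seen. It gave 41 genes that are not members, of which 32 were tested. Of these, 1 was called lower and 2 were called higher, where 8.05% of all genes tested were called lower and 5.0% higher. Counts this small are no result about the neighbours as a group. Among the 32 tested neighbours, 19 had a log2 fold change below 0 and 13 above. Their median was -0.12, against 0.02 for all genes tested. Potri.001G340400 and Potri.001G340600 are separated by 1 identifier, Potri.001G340500, which had 8, 4 and 6 counts and was not tested.

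The neighbours that passed the test are named here after their values were seen. Next to Potri.012G090400, Potri.012G090500 was counted 8 times in wild type, 35 times in line KD2 and 19 times in line KD5. It rose by a log2 fold change of 2.09 (SE 0.68, edgeR quasi-likelihood adjusted p = 0.0224) and matches SOBIR1, a receptor-like kinase of Arabidopsis immunity. Near the PDCB3 member, Potri.010G159100, described as a tetratricopeptide repeat protein, rose from 223 counts to 361 and 281, by a log2 fold change of 0.88 (SE 0.20, edgeR quasi-likelihood adjusted p = 0.000325). Near Potri.017G071000, Potri.017G071400 was lower (log2 fold change -0.62, SE 0.19, edgeR adjusted p = 0.012), and the files give it no name. The other 29 tested neighbours were not called.

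**Figure D5:**
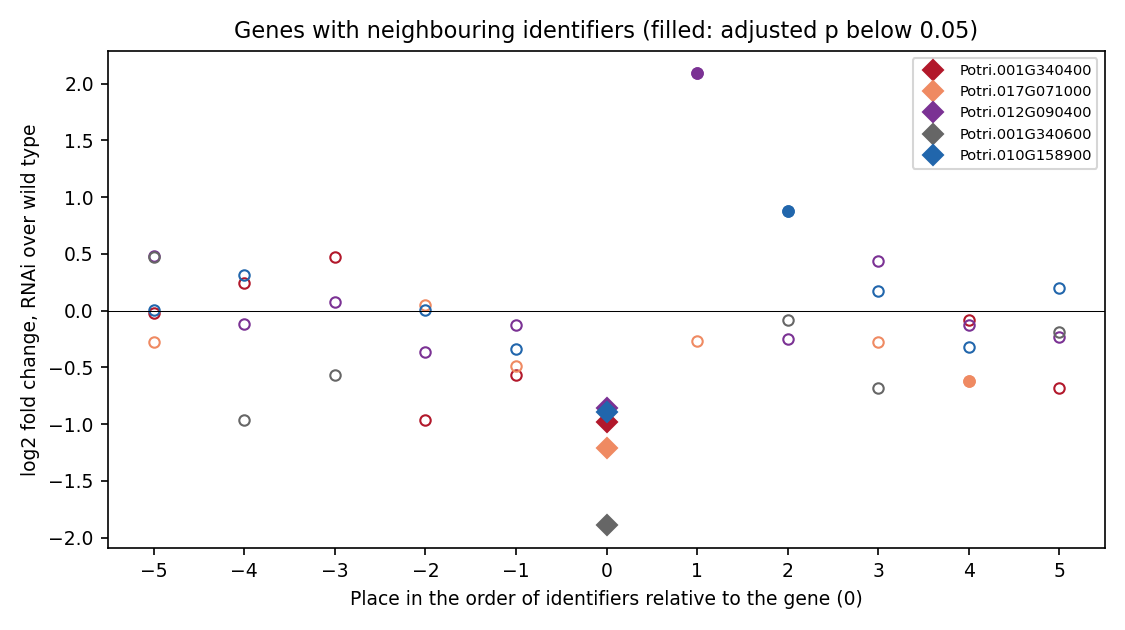
Log2 fold change of the RNAi libraries over wild type for the 5 members (diamonds at 0) and for tested genes up to 5 identifiers away that are not members (circles, coloured by member, filled where called). The members lie between -0.86 and -1.89 and their neighbours between -0.96 and 2.09. The members had been listed by the authors as differing and the neighbours were taken by identifier alone, so the ranges differ in part by choice.

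Beyond both matches, 6 further lists of phloem and plasmodesmata genes were searched by Arabidopsis locus or description. Names exist only for the 2151 genes that the authors had selected on these libraries, so the searches describe that selection. Callose synthases, phloem protein 2 lectins and sugar loading transporters gave 0 genes. The remaining 3 lists gave 1 gene each, so the 8 lists together held 11 genes, of which 9 were called lower and 1 higher. Since 59.5% of the authors' listed genes were called lower, these counts are no result about phloem or plasmodesmata genes as a group.

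Potri.004G086000 matches PDLP7, of a family of membrane proteins located at plasmodesmata. It was counted 61 times in wild type, 9 times in line KD2 and 19 times in line KD5, at 9.92, 1.89 and 3.89 CPM, with a log2 fold change of -1.77 (SE 0.47). Both RNAi libraries were lower, and KD2 the lower of them. The ratio of KD2 to KD5 was 0.485, with a counting interval from 0.193 to 1.13. A difference between the lines was thus not detectable at this depth, as at Potri.001G340400.

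Potri.002G224600 belongs to glycosyl hydrolase family 17, which contains the enzymes that cut callose, and had 105, 68.7 and 62.3 CPM (log2 fold change -0.68, SE 0.17). A wider search for that family by description, made after the data were seen, found 5 genes, of which 4 were called lower, beside 59.5% of all listed genes. The exception, Potri.008G055900, had 2.11 CPM in wild type, 6.3 in line KD2 and 5.53 in line KD5 and was not called. Whether any of them cuts callose at plasmodesmata is not given in the files.

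The gene of these lists that went the other way was Potri.018G140900. It matches AT5G57130, known in Arabidopsis as SMXL5, which acts in phloem formation. It had 26.0 CPM in wild type, 50.0 in line KD2 and 45.5 in line KD5, a log2 fold change of 0.87 (SE 0.22), with both RNAi libraries above wild type. Potri.006G240100, found after the data were seen by its description as sucrose export defective 1, had 35.6, 18.1 and 22.95 CPM. In maize, loss of that tocopherol cyclase is known to go with callose over plasmodesmata of the leaf veins.

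Markers of other cell types moved in the same direction among the listed genes. The 4 lists for xylem, epidermis, green tissue and meristem held 13 genes, and all 13 were called lower, beside 59.5% of all genes in the authors' deposited table that were tested. Summed CPM of the 5 green tissue genes was 3451 in wild type and 1573 and 1588 in the RNAi libraries. The 5 epidermis genes summed to 2550 CPM against 1439 and 1252, and the 2 meristem genes, both matches of SHOOT MERISTEMLESS, to 235 against 106 and 145. The xylem list had 1 gene, the CESA7 match, at 15.1 CPM against 5.25 and 6.97. No listed marker was at 0 in any library, and the presence of meristem and green tissue markers goes with the labelled bud apices. Names exist only for selected genes, and the part of tissue content in the members' levels was not tested.

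For each member, the 3 tested genes of like abundance whose profile over the 3 libraries was nearest were found by Euclidean distance between centred log2(CPM + 0.5) values. Nearest to Potri.017G071000 was the AGP14 match Potri.001G004100, an arabinogalactan protein gene, at a distance of 0.001, with 24.9, 9.66 and 11.9 CPM. The KD2 level of Potri.017G071000 itself had a Poisson interval from 6.36 to 11.9 CPM. The order among such close profiles is therefore not resolved beyond counting error, and whether the genes are regulated together was not tested. Nearest to Potri.001G340400 was the TIM23-1 match Potri.001G198100, a mitochondrial import subunit, at 0.007. The third, Potri.012G090400, was nearest to Potri.005G219400, a signal recognition particle subunit, at 0.013.

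Nearest to Potri.001G340600 was the PPT2 match Potri.001G347300, a plastid phosphate translocator, at 0.039. Potri.010G158900 was nearest to the MLP423 match Potri.008G212300, at 0.007, with 173, 89.7 and 97.4 CPM. Of the 15 nearest genes, 14 are listed in the authors' deposited table, where 2128 of the 23089 genes tested are listed. The members were listed on the same libraries that make up the profiles, so this high number was fixed in part in advance. No occlusion or PDCB3 match was among the 15. This absence was in part fixed in advance, since only genes within 1 log2 unit of a member's mean abundance were compared. That left out every other occlusion match for Potri.001G340600, and Potri.015G057800 and Potri.008G095300 for Potri.010G158900. Within a distance of 0.1 lay 76 of the 2532 genes compared with Potri.010G158900 (3.0%) and 52 of 8773 for Potri.012G090400 (0.593%). There were 19 of 9201 for Potri.017G071000 (0.206%), 19 of 9679 for Potri.001G340400 (0.196%) and 6 of 3803 for Potri.001G340600 (0.158%).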

How the data were processed

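RNA-seq libraries from poplar buds were analysed from 2 deposited tables. The authors deposited raw whole-number counts per gene, which per the file headers come from 1 alignment file per library. FastQC, TopHat and edgeR appear in the submitters' processing notes, without versions. The build, the annotation and the counter were not given in the sources used here. A second table by the authors holds log2 fold changes, mean log2 CPM, p-values and adjusted p-values (FDR) of 2151 genes, per the file headers, with Arabidopsis matches for 2010. It is the only source of names, and no sequence, gene length or coordinates were used. The identifier of PtaDML10 comes from published naming. The kit was directional per the labels' protocols, but whether counting used strand is not stated, so reads of overlapping genes are uncertain.

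Counts were tested with edgeR 4.0.16 in R 4.3.3 (filterByExpr with a minimum count of 10, TMM factors of 0.904, 1.06 and 1.04 for wild type, KD2 and KD5, glmQLFit, glmQLFTest, two-sided, Benjamini-Hochberg threshold 0.05). The fit has 1 residual degree of freedom and a common coefficient of variation of 11.4%. Its prior degrees of freedom were infinite, so a gene's own spread had no weight. Wild type is assumed to vary like the RNAi libraries. The p-values rest only on the spread between KD2 and KD5 pooled over genes, which may be technical. On simulated counts the fit called 64.3% of genes changed by 2-fold and 89.6% of those changed by 4-fold, with 6 calls among 22375 genes left unchanged. Every gene was simulated with the common dispersion of 0.013 in all 3 libraries, so wild type varied as the fit assumes. The simulation therefore cannot tell how often unchanged genes are called in the real libraries. Log2 ratios of single libraries used a prior count of 2. Intervals are exact Poisson, conditional binomial or Wilson at 95%.

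The members and lists were chosen with earlier results of these data known. Named genes are the members, up to 4 called genes and the 2 most abundant per list, and the 3 nearest profiles per member, of which the nearest is printed. Marker lists are given as sums. Alternatives covered 4 other scalings, 2 other filters, DESeq2 1.42.0, limma 3.58.1, another prior count and leaving out KD2 or KD5.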

Additional observations from a re-analysis of the deposited data

How the results depend on the processing

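Every member and PDCB3 match kept a negative log2 fold change under every alternative run. The genes were listed by the authors as differing between these libraries, and every alternative used the same wild type library. A kept sign was therefore largely fixed in advance. Values over these alternatives ranged from -1.37 to -0.99 for Potri.017G071000, -1.24 to -0.76 for Potri.001G340400, -0.96 to -0.64 for Potri.012G090400, -2.59 to -1.43 for Potri.001G340600 and -0.94 to -0.64 for Potri.010G158900. Without KD2 or without KD5 no residual degree of freedom was left, so these values carry no test. Potri.001G340600 then lay between -2.59 and -1.43. Calls were less stable. With every detected gene kept, the edgeR quasi-likelihood test called 0 of the 5 members, 0 of the 8 occlusion and PDCB3 matches, 0 of the 11 list genes and 0 of all genes lower or higher, with 5, 8, 10, 2910 and 2141 at an unadjusted p under 0.05. The DESeq2 Wald test called 1 member, 2 of the 8 matches, 2 of the 11 list genes, and 492 of all genes lower and 40 higher. It gave no adjusted p for 4 of the 5 members. Of all genes tested, 1859 were called lower and 1155 higher (TMM), 976 and 3004 with library size only, and 979 and 629 after loess normalization on abundance, where Potri.012G065700 (-0.55) and Potri.015G057800 (-0.37) lost their calls. Potri.012G090400 lost its call with library size only (edgeR adjusted p = 0.123), upper quartile scaling (0.0508) and limma-trend (0.0567). No paired analysis was possible because wild type has 1 library and the labels pair no libraries. Low counts limit Potri.001G340600.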
